A study of Mus musculus with 14 samples.

Results

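The genes of DNA replication and nucleotide supply were followed through 4 genotypes of cultured mouse liver cancer cells. There were 58 of them, chosen by symbol from 24946 named symbols in the table. They cover origin licensing, the MCM2-7 helicase and its activation, the sliding clamp and its loader, single-stranded DNA binding, polymerases and primase, Okazaki fragment processing, nucleotide supply, E2F factors with the E cyclins, and chromatin copying. All 58 were in the table and all 58 passed the filter on low values.

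The cells were hepatocellular carcinoma lines from diethylnitrosamine-induced tumours of mice with floxed Acly alleles. ACLY makes acetyl-CoA from citrate in the cytosol and ACSS2 makes it from acetate. WT cells (line D42V, 4 libraries) kept the floxed alleles, and ACLY KO cells (D42C4V, 4 libraries) had lost Acly through adenoviral Cre and came from a single-cell clonal population. ACSS2 KO cells (D42 Sg2-3, 3 libraries) and DKO1 cells (D42C4 Sg2-2, 3 libraries) were single-cell clones of the WT and ACLY KO lines, cut with a guide against exon 1 of Acss2. WT and ACLY KO cells carried the empty guide vector, so all 4 lines were transduced and selected in puromycin. All were kept for 24 hours in DMEM with 10% calf serum before RNA extraction. Each genotype is 1 line or clone, so genotype and clone cannot be told apart. The methods state that the RNA-seq was not repeated independently, so p-values measure the spread between these libraries, which may be technical.

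In the cell cycle, ORC, CDC6 and CDT1 load the ring-shaped MCM2-7 helicase onto origins in G1, and geminin blocks CDT1 afterwards. At the start of S phase CDC45 and the GINS complex turn the MCM ring into a moving helicase. Polymerase alpha-primase then lays down primers, RFC loads the PCNA clamp, and polymerases delta and epsilon copy the strands from deoxynucleotides that ribonucleotide reductase supplies. Much of this gene set is switched on together at the G1/S boundary by activating E2F factors such as E2F1 and E2F2, while E2F7 and E2F8 repress the same targets later in S phase.

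The deposited values are normalized counts, which are read counts per gene that the authors scaled with DESeq normalization factors. Library totals were between 23565707 and 26946164 normalized counts. The most frequent low value, taken as worth 1 read, gave implied depths between 19164067 and 33522192 reads, which are estimates. Differences are given on the log2(normalized count + 1) scale. They were tested with limma in 12693 genes with a mean of at least 10, and the p-values were adjusted over all of those genes by the method of Benjamini and Hochberg. A member was called at an adjusted p under 0.05. Acly was lowered in ACLY KO (1001 ± 56.1 (SD, n = 4)) and DKO1 (946 ± 12.9 (SD, n = 3)) compared with WT (6049.7 ± 423 (SD, n = 4)) and ACSS2 KO (5684 ± 124 (SD, n = 3)). Mean Acss2 was 237 in WT against 132 in ACSS2 KO, and 718 in ACLY KO against 535 in DKO1, so in DKO1 it was below its parent line and above WT. A frameshift in exon 1 need not lower the mRNA, so this level does not check the edit. Of the liver markers, Krt8 was between 13938 and 31017 normalized counts in every library, while Apoa1 was at or below 1.5 and Alb at or below 137. Mean Hnf4a was 172 in WT against 22.4 in DKO1, 28.7 in ACLY KO and 39.8 in ACSS2 KO, and mean Afp was 37.0, 209.7, 127 and 34.3 in the same order. The summed markers of fibroblasts and stellate cells were 603 to 716 in WT, 1418 to 1462 in ACSS2 KO, 1136 to 1404 in DKO1 and 2868 to 3247 in ACLY KO. Summed biliary markers were 21647 to 31969 in WT, 18274 to 20516 in ACSS2 KO, 11195 to 18276 in DKO1 and 8608 to 9374 in ACLY KO. Summed endothelial markers were 18.6 to 28.3 in WT, 10.5 to 18.3 in ACSS2 KO, 40.2 to 51.2 in DKO1 and 77.1 to 92.3 in ACLY KO. Genes within a list did not move together. Mean Pecam1 was 7.5 in WT and 61.7 in ACLY KO, while mean Kdr was 12.9 and 2.2. Mean Col1a1 was 428 in WT, 2454 in ACLY KO and 523 in ACSS2 KO, while mean Dcn was 154, 182 and 820 in the same order. Of the leukocyte markers Csf1r was at 992 to 1413 in every library, while Adgre1 was at or below 0.855 and Cd3e at or below 1.48. The part of these markers in the results was not tested.

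Libraries also differed by transcript length. In DKO1 replicate 4, WT replicate 2, ACLY KO replicate 4 and ACSS2 KO replicate 1, genes with short transcripts lay above and genes with long transcripts below their group means, with Spearman correlations across 12558 genes of -0.61, -0.53, -0.52 and -0.48. The other libraries had values between 0.026 and 0.57. DKO1 replicate 4 lay above both other DKO1 libraries for 35 members, below both for 20 and between them for 3. Values without it are therefore given where its loss changed a printed call or moved a printed called difference by over 1.5 times.

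Replication and nucleotide supply genes were lower in DKO1 than in WT. Of the 58 members, 42 were called lower and 1, E2f2, higher, when 28.1% of all tested genes were called lower and 27.9% higher. The median member was -0.54 on the log2 scale, against 0.0037 over all genes tested. In ACLY KO against WT, 29 members were lower and 0 higher, with 24.7% and 23.8% of tested genes called in those directions and a member median of -0.31. In limma at an unadjusted p under 0.05, the members higher in ACLY KO were also 0. In ACSS2 KO against WT, 9 members were lower and 3 higher, when 11.0% and 15.0% of all tested genes were called in those directions, with a member median of -0.11. In DKO1 against its parent ACLY KO, 29 were lower and 0 higher, with 13.6% and 14.3% of tested genes called and a median of -0.21. At an unadjusted p under 0.05, 2 members (Orc6 and E2f1) were higher. In DKO1 against ACSS2 KO, 36 were lower and 2 higher, with 27.8% and 25.9% of tested genes called and a median of -0.52. In bulk RNA, fewer cells in S phase and less of each mRNA per cell cannot be told apart. No member passed the limits of the study, an absolute log2 fold change over 1.5 with an adjusted p under 0.01, in any comparison. The paper set these limits for each knockout against WT, and their use in the other comparisons is an extension made here. The share of tested genes that passed them in either direction was 8.80% in ACLY KO, 9.84% in DKO1 and 2.42% in ACSS2 KO against WT. It was 2.06% in DKO1 against ACLY KO, 11.3% against ACSS2 KO and 4.61% for the interaction.

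**Figure D1:**
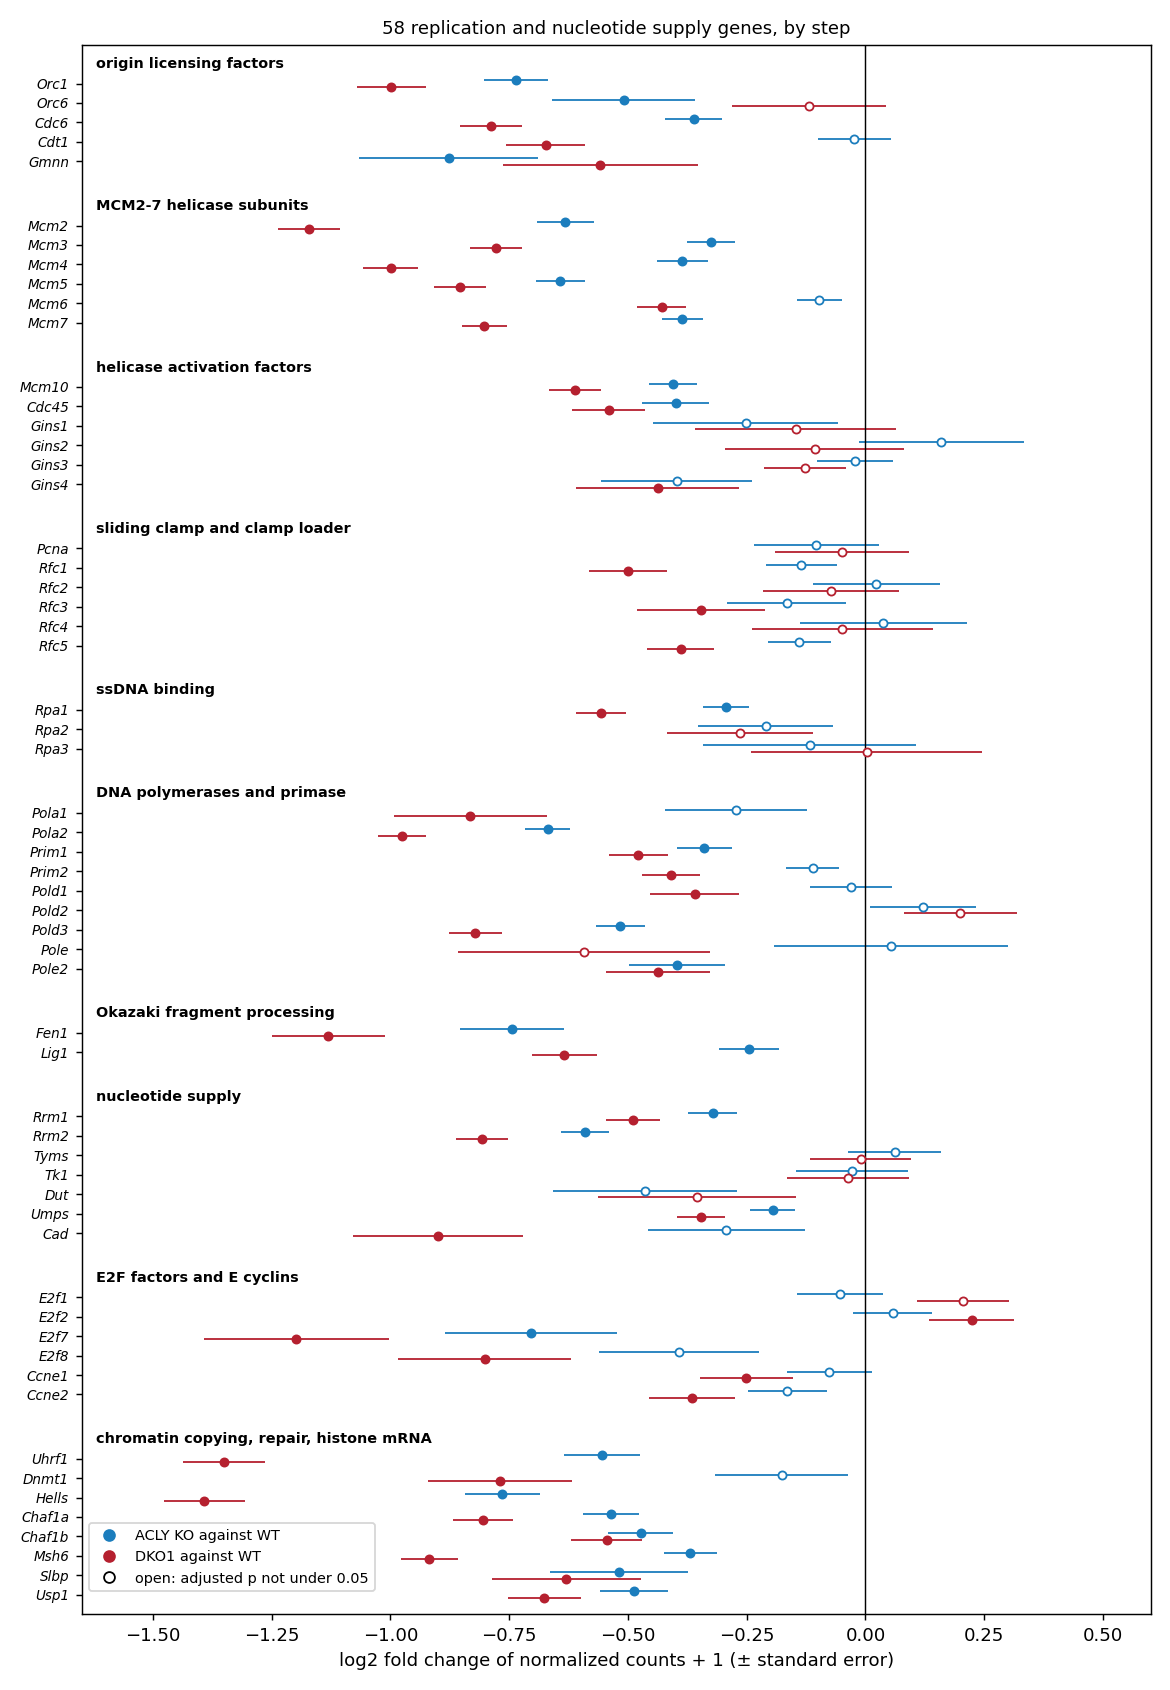
Log2 fold change of normalized counts + 1 (± standard error) of the 58 genes in ACLY KO (blue) and DKO1 (red) against WT, ordered by replication step, with filled points at an adjusted p under 0.05 in limma. Both comparisons use the same WT libraries. In DKO1 the 6 MCM2-7 genes lie between -1.17 and -0.43 and all 8 chromatin genes between -1.39 and -0.54, while Pcna, Tyms and Tk1 lie between -0.05 and -0.01.

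Without DKO1 replicate 4, 52 members were lower in DKO1 than in WT, and without both DKO1 replicate 4 and WT replicate 2, 53 were lower and 1 higher. Calls over all 12693 tested genes, in either direction, rose as well, from 7111 to 7784 and 8710. With equal library totals in place of the deposited scaling, 41 members were lower and 3 higher in DKO1 against WT and 27 lower and 1 higher in ACLY KO against WT. All 3 DKO1 libraries lay below all 4 WT libraries for 39 members and above them for 0, when 24.3% and 23.3% of tested genes separated in those directions. For ACLY KO against WT, 33 members separated downwards and 0 upwards (27.1% and 25.9% of tested genes). There were 28 members lower than WT in both ACLY KO and DKO1, comparisons that share the WT libraries. Of the 29 members that were lower in ACLY KO than in WT, 20 were lower again in DKO1 than in ACLY KO. The other 9 (Orc6, Gmnn, Cdc45, Prim1, Pole2, E2f7, Chaf1b, Slbp and Usp1) were not called between DKO1 and ACLY KO, and a further 9 (Cdt1, Mcm6, Rfc1, Rfc5, Pola1, Prim2, Pold1, Cad and Dnmt1) were called lower in DKO1 against ACLY KO but not in ACLY KO against WT. Among the 20, with 1 library left out, Umps kept its call against ACLY KO only without WT replicate 2 or DKO1 replicate 4 (adjusted p = 0.0544 to 0.12 in limma otherwise). Orc1, Fen1 and Rrm1 also lost it in some of those fits. The shares of all tested genes with these pairs of calls are not given here.

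Of the 5 licensing genes, 4 were lower in DKO1 than in WT. Orc1, the ATPase subunit of the origin recognition complex (chromosome 4, 108579423 to 108614833, plus strand, GRCm38), fell furthest. Orc1 had 602, 562, 608 and 569 normalized counts in WT and 362, 366, 347 and 330.0 in ACLY KO, with 458, 455 and 427 in ACSS2 KO and 319, 293 and 267 in DKO1. The groups did not overlap between WT and any of the knockouts, and DKO1 had the lowest values. Orc1 was 2-fold lower in DKO1 than in WT (-1.0 ± 0.074 (SE), adjusted p = 1.58e-07), and was also lower in ACLY KO (-0.74 ± 0.068 (SE), adjusted p = 1.3e-06) and in ACSS2 KO (-0.39 ± 0.074 (SE), adjusted p = 0.00157). Between DKO1 and ACLY KO it differed by -0.26 ± 0.074 (SE), adjusted p = 0.018, a call that ended without ACLY KO replicate 2 or DKO1 replicate 4 (adjusted p = 0.0502 to 0.0529).

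Cdt1, which brings MCM2-7 to origins, was called lower in DKO1 and in neither single knockout. Cdt1 had 2182, 1978, 1875 and 1972 normalized counts in WT and 1903, 1797, 2096 and 2085 in ACLY KO, with 2094, 2186 and 2068 in ACSS2 KO and 1124, 1266 and 1382 in DKO1. Every DKO1 library lay below every other library, and the other 3 genotypes overlapped. The difference was -0.67 ± 0.083 (SE), adjusted p = 1.58e-05 against WT and -0.65 ± 0.083 (SE), adjusted p = 9.11e-05 against ACLY KO. Between ACSS2 KO and WT it was 0.082 ± 0.083 (SE), adjusted p = 0.529. Cdc6, the ATPase that completes the loading complex, fell in ACLY KO (-0.36 ± 0.061 (SE), adjusted p = 0.000246) and further in DKO1 (-0.79 ± 0.065 (SE), adjusted p = 4.72e-07), with DKO1 at 901 ± 43.1 (SD, n = 3) normalized counts and WT at 1557 ± 104 (SD, n = 4).

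Orc6, a further ORC subunit, and Gmnn, which encodes geminin, were not called between DKO1 and ACLY KO. Orc6 had 2687, 3299.6, 2457 and 2383 normalized counts in WT and 1869, 1872, 1775 and 2036 in ACLY KO, with 2420.0, 2189.7 and 2044 in ACSS2 KO and 2043, 2145 and 3442 in DKO1. DKO1 replicate 4 was above every WT library, while the other 2 DKO1 libraries lay just above the ACLY KO range. Orc6 was lower in ACLY KO than in WT (-0.51 ± 0.15 (SE), adjusted p = 0.0126) and was -0.12 ± 0.16 (SE), adjusted p = 0.553 in DKO1 against WT. Without DKO1 replicate 4 that difference was -0.36 ± 0.11 (SE), adjusted p = 0.014. Gmnn was lower in ACLY KO (-0.88 ± 0.19 (SE), adjusted p = 0.00172) and in DKO1 (-0.56 ± 0.2 (SE), adjusted p = 0.0336), and the DKO1 call ended without WT replicate 2, DKO1 replicate 1 or DKO1 replicate 3 (adjusted p = 0.0789 to 0.14). The tested genes within 5 Mb of Orc6, 75 in number, had a median of -0.34 in ACLY KO against WT, and those around Gmnn 0.49 in DKO1 against ACLY KO.

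All 6 subunits of the MCM2-7 helicase were lower in DKO1 than in each of the other 3 genotypes. Mcm2 had 10044, 9073, 10142 and 10510.5 normalized counts in WT and 6293, 6527, 6542 and 6272 in ACLY KO, with 9187, 9160.2 and 9229 in ACSS2 KO and 4498, 4696 and 4052 in DKO1. For Mcm2 (chromosome 6, 88883474 to 88898780, minus strand) the order was DKO1, ACLY KO, then WT and ACSS2 KO, and only WT and ACSS2 KO overlapped. It was 2.25-fold lower in DKO1 than in WT (-1.17 ± 0.065 (SE), adjusted p = 1.42e-08) and -0.54 on the log2 scale against ACLY KO (adjusted p = 6.22e-05). Its 79 tested neighbours within 5 Mb had a median of -0.44 in DKO1 against WT and -0.43 in ACLY KO against WT, so the genes around it were lower too.

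The other 5 subunits were -1.0 (Mcm4), -0.85 (Mcm5), -0.80 (Mcm7), -0.78 (Mcm3) and -0.43 (Mcm6) in DKO1 against WT, with adjusted p from 2.03e-08 to 1.34e-05. Around Mcm3 and Mcm5 the neighbouring genes were higher, with medians of 0.24 and 0.21, and around Mcm4, Mcm6 and Mcm7 they lay between -0.0088 and 0.02. Mcm6 had 7759.6, 7695, 7628 and 7668 normalized counts in WT and 6871, 7374, 7347 and 7173 in ACLY KO, with 9010.4, 8841 and 9075 in ACSS2 KO and 5907, 5831 and 5411 in DKO1. Mcm6 (chromosome 1, 128331590 to 128359664, minus strand) was the subunit that differed least between ACLY KO and WT (-0.10 ± 0.048 (SE), adjusted p = 0.114 in limma). It was higher in ACSS2 KO than in WT (0.22 ± 0.052 (SE), adjusted p = 0.00601). Its 47 neighbours had a median of 0.20 in that comparison. The 5 other subunits were lower in ACLY KO than in WT, from -0.32 (Mcm3) to -0.64 (Mcm5, named after its values were seen).

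The change of the MCM genes that went with ACSS2 loss was not the same in the 2 backgrounds. Genotype and clone cannot be told apart here. In ACLY KO cells (DKO1 against ACLY KO) all 6 fell, from -0.21 for Mcm5 to -0.61 for Mcm4. In WT cells (ACSS2 KO against WT) the 6 lay between -0.23 for Mcm4 and 0.22 for Mcm6. The difference between those changes was tested in limma as an interaction and was called for 5 of the 6. It was -0.55 for Mcm6 (adjusted p = 0.000112), -0.55 for Mcm3 (0.000195), -0.43 for Mcm2 (0.00402), -0.39 for Mcm4 (0.0037) and -0.30 for Mcm7 (0.00516). For Mcm5 it was -0.11 ± 0.078 (SE), adjusted p = 0.333. The neighbour median for the interaction was -0.26 around Mcm6, and lay between 0.013 and 0.066 around Mcm2, Mcm3, Mcm4 and Mcm7.

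**Figure D2:**
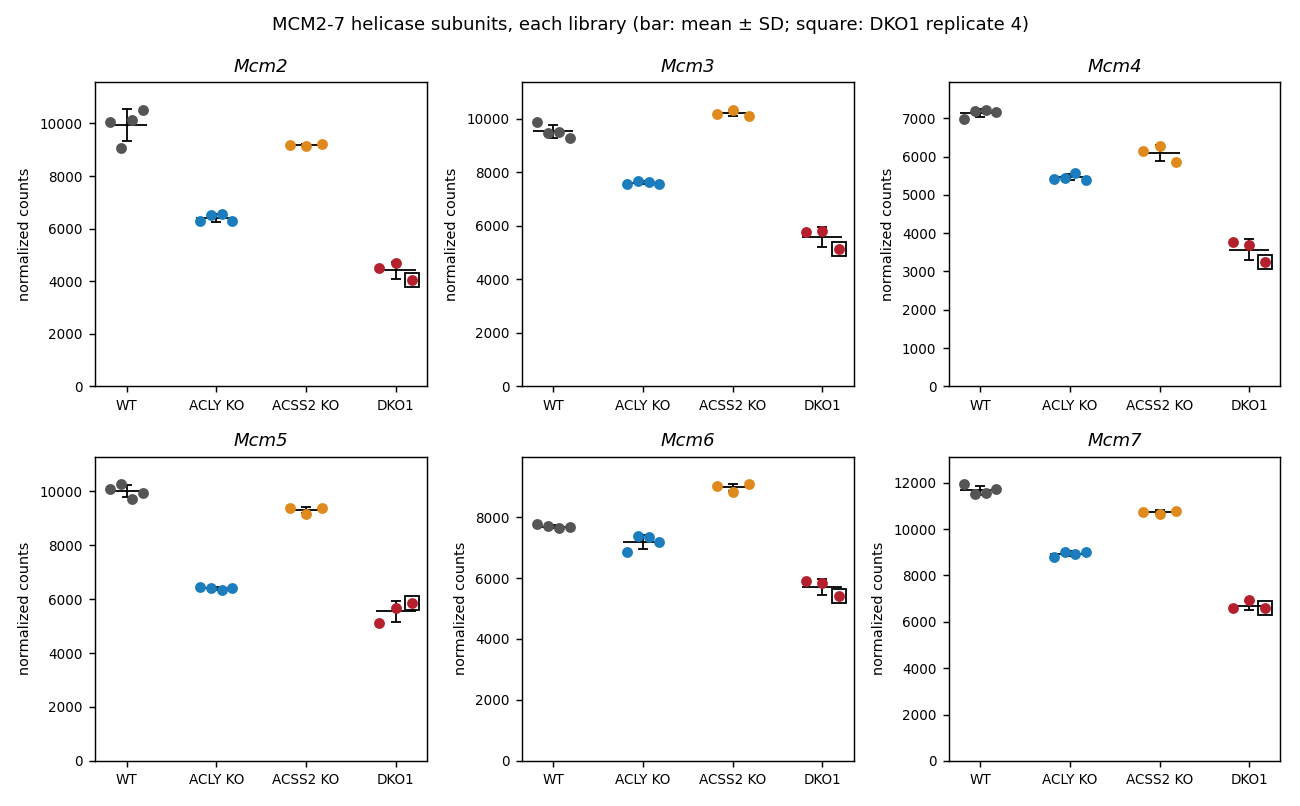
Normalized counts of the 6 MCM2-7 genes in each library (points), with the mean and SD of each genotype (bars) and DKO1 replicate 4 in a square. In every panel the 3 DKO1 libraries lie below all 11 other libraries, and for Mcm6 the ACSS2 KO libraries (8841 to 9075) lie above WT (7628 to 7760).

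Among the factors that activate the helicase, Mcm10 and Cdc45 fell and most of the GINS genes did not pass the test. MCM10 helps the activated helicase leave the origin and CDC45 is part of it. Mcm10 went from 2436 ± 112 (SD, n = 4) normalized counts in WT to 1593 ± 41.9 (SD, n = 3) in DKO1, with 1839 ± 49.3 (SD, n = 4) in ACLY KO (-0.61 ± 0.055 (SE), adjusted p = 9.14e-07 against WT). Cdc45 was -0.54 ± 0.076 (SE), adjusted p = 5.16e-05 in DKO1 against WT and -0.40 ± 0.07 (SE), adjusted p = 0.000372 in ACLY KO. Gins4 had 1502, 1890.4, 1379.7 and 1298 normalized counts in WT and 1065, 1146, 1075 and 1287 in ACLY KO, with 1535, 1376 and 1516 in ACSS2 KO and 885, 991 and 1553 in DKO1. The call of Gins4 in DKO1 against WT (-0.44 ± 0.17 (SE), adjusted p = 0.0449) held only without WT replicate 4 or DKO1 replicate 4 among the 14 leave-one-out fits, with adjusted p = 0.0504 to 0.194 in the others. It was -0.68 ± 0.13 (SE), adjusted p = 0.000454 without DKO1 replicate 4. Its 54 neighbours had a median of -0.49, slightly below the gene itself. Gins1, Gins2 and Gins3 were -0.15, -0.11 and -0.13, not called. Without DKO1 replicate 4, Gins1 was -0.47 ± 0.14 (SE), adjusted p = 0.00931, and Gins2 -0.41 ± 0.11 (SE), adjusted p = 0.00502.

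The clamp itself and the loader genes Rfc2 and Rfc4 were not called in DKO1 against WT, while Rfc1, Rfc3 and Rfc5 were called lower. Pcna had 19371, 24628, 18089 and 18293 normalized counts in WT and 17898, 18568, 17862 and 19981 in ACLY KO, with 18260.5, 16540.3 and 16283 in ACSS2 KO and 16370.2, 17346 and 25162 in DKO1. Pcna, the sliding clamp (named after its values were seen), had its highest value in DKO1 replicate 4, and all 4 genotypes overlapped. Its difference in DKO1 against WT was -0.05 ± 0.14 (SE), adjusted p = 0.787, 95% interval -0.36 to 0.26, and without DKO1 replicate 4 it was -0.24 ± 0.11 (SE), adjusted p = 0.0672. The 75 genes around Pcna on chromosome 2 had a median of 0.48 in that comparison. Of the RFC genes, which load the clamp, Rfc1 fell in DKO1 against WT (-0.50 ± 0.081 (SE), adjusted p = 0.000178) and against ACLY KO (-0.37 ± 0.081 (SE), adjusted p = 0.00498). Rfc5 was -0.39 ± 0.071 (SE), adjusted p = 0.000458 against WT, and -0.25 against ACLY KO, where the call ended without ACLY KO replicate 4 or either of DKO1 replicates 1 and 3 (adjusted p = 0.0532 to 0.0709). Rfc3 was -0.35 ± 0.13 (SE), adjusted p = 0.0431 against WT, a call kept only without DKO1 replicate 4 (adjusted p = 0.051 to 0.186 without any other library). Rfc3 was -0.56 ± 0.083 (SE), adjusted p = 7.13e-05 without DKO1 replicate 4. Rfc2 and Rfc4 were -0.072 and -0.049, and without DKO1 replicate 4 they were -0.31 ± 0.078 (SE), adjusted p = 0.0038 and -0.36 ± 0.11 (SE), adjusted p = 0.0105.

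Of the 3 subunits of RPA, which coats single-stranded DNA at the fork, only the large subunit gene Rpa1 was called in DKO1 against WT. Rpa1 had 5315, 5232, 5179.8 and 5235 normalized counts in WT and 4139, 4455, 4209 and 4306 in ACLY KO, with 5806, 5568 and 5733 in ACSS2 KO and 3389.5, 3562 and 3745 in DKO1. DKO1 was lowest, ACLY KO next, and ACSS2 KO lay above WT in every library. Rpa1 was -0.56 ± 0.052 (SE), adjusted p = 1.4e-06 in DKO1 against WT, -0.26 ± 0.052 (SE), adjusted p = 0.00237 against ACLY KO and 0.12 ± 0.052 (SE), adjusted p = 0.11 in ACSS2 KO against WT. Its interaction was -0.38 ± 0.074 (SE), adjusted p = 0.00184. Rpa2 and Rpa3 were -0.26 ± 0.15 (SE), adjusted p = 0.161, and 0.00 ± 0.24 (SE), adjusted p = 0.994, with DKO1 replicate 4 at 1984 and 1883 normalized counts against 1225 to 1278 and 805 to 897 in the other 2 DKO1 libraries. Without DKO1 replicate 4 they were -0.49 ± 0.11 (SE), adjusted p = 0.00185, and -0.38 ± 0.15 (SE), adjusted p = 0.0443.

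Of the 9 polymerase and primase genes, 7 were lower in DKO1 than in WT, among them all 4 subunits of polymerase alpha-primase, which starts every strand. Pola2 had 2263, 2131, 2196 and 2232 normalized counts in WT and 1314, 1401, 1425 and 1407 in ACLY KO, with 2218, 2176 and 2182 in ACSS2 KO and 1095, 1133 and 1133 in DKO1. Pola2 (chromosome 19, 5940542 to 5964202, minus strand) fell in ACLY KO (-0.67 ± 0.047 (SE), adjusted p = 9.9e-08), had its ACSS2 KO values within the WT range, and fell further in DKO1 (-0.98 ± 0.05 (SE), adjusted p = 7.5e-09 against WT). Its 196 tested neighbours on chromosome 19 had medians of -0.42 and -0.54 in those comparisons. Pola1, the catalytic subunit, was -0.83 ± 0.16 (SE), adjusted p = 0.000711 in DKO1 against WT and -0.56 ± 0.16 (SE), adjusted p = 0.0208 against ACLY KO, and the latter call ended without ACLY KO replicate 3 (adjusted p = 0.0545). The differences of Pola1 without DKO1 replicate 4 were -0.60 ± 0.12 (SE), adjusted p = 0.000622, and -0.33 ± 0.12 (SE), adjusted p = 0.0489.

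The primase genes, like Mcm6, were called in opposite directions in ACSS2 KO and DKO1. Prim1 had 1504, 1618, 1527 and 1483 normalized counts in WT and 1165, 1260.1, 1133 and 1293 in ACLY KO, with 2124, 2066 and 2149 in ACSS2 KO and 1069, 1081 and 1151 in DKO1. ACSS2 KO was highest and WT next, and only ACLY KO and DKO1 overlapped. It was 0.46 ± 0.062 (SE), adjusted p = 0.000117 in ACSS2 KO against WT and -0.48 ± 0.062 (SE), adjusted p = 2.56e-05 in DKO1 against WT. Prim1 (chromosome 10, 128015168 to 128030037, plus strand) lies among 76 tested genes whose median was 0.51 in ACSS2 KO against WT and -0.075 in DKO1 against WT, so in ACSS2 KO its rise was no larger than that of its neighbours. Prim2, on chromosome 1, was 0.35 ± 0.061 (SE), adjusted p = 0.00092 and -0.41 ± 0.061 (SE), adjusted p = 8.4e-05 in the same comparisons, with neighbour medians of 0.18 and -0.091. The interactions were -0.60 for Prim1 (adjusted p = 0.000257) and -0.65 for Prim2 (0.000123), and neighbour medians for the interaction were -0.56 and -0.36.

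Of the lagging-strand and leading-strand polymerases, Pold3, an accessory subunit of polymerase delta, fell in ACLY KO (-0.52 ± 0.051 (SE), adjusted p = 2.61e-06), in ACSS2 KO (-0.25 ± 0.056 (SE), adjusted p = 0.00533) and in DKO1 (-0.82 ± 0.056 (SE), adjusted p = 7.79e-08). The 3 Pold3 values of DKO1 (799.7 ± 19.6 normalized counts, SD, n = 3) lay below all 4 of ACLY KO (989 ± 24.3, SD, n = 4). Pold1, which carries the catalytic site of polymerase delta, was -0.36 ± 0.094 (SE), adjusted p = 0.00549 in DKO1 against WT and Pole2, a further subunit of polymerase epsilon, -0.44 ± 0.11 (SE), adjusted p = 0.0042. The rule for naming genes did not choose these 2 or the next 2, which were named after their values were seen. Pold2, an accessory subunit of polymerase delta, was 0.20 ± 0.12 (SE), adjusted p = 0.174. Pole had 4136, 2627, 4679 and 4661 normalized counts in WT and 4157, 4279, 4399 and 3516 in ACLY KO, with 3392, 4205 and 4087 in ACSS2 KO and 3485, 3322 and 1518 in DKO1. Pole, the catalytic subunit of polymerase epsilon and the longest member with a merged exon length of 11160 bases, had its lowest values in DKO1 replicate 4 and WT replicate 2, and was -0.59 ± 0.27 (SE), adjusted p = 0.0738. With both of those libraries left out it was -0.40 ± 0.099 (SE), adjusted p = 0.00258.

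Both genes of Okazaki fragment processing fell step by step. FEN1 trims the displaced flap and LIG1 seals the nick. Fen1 had 4636, 5653, 4260.0 and 4078 normalized counts in WT and 2721, 2754, 2673 and 2883 in ACLY KO, with 4325, 3988 and 3928 in ACSS2 KO and 1853, 1982 and 2555 in DKO1. The DKO1 and ACLY KO libraries lay below every WT library. Fen1 (chromosome 19, 10199132 to 10204169, minus strand) was -0.74 ± 0.11 (SE), adjusted p = 8.8e-05 in ACLY KO and -1.13 ± 0.12 (SE), adjusted p = 3.94e-06 in DKO1 against WT, with medians of -0.38 and -0.59 for its 152 tested neighbours. Between DKO1 and ACLY KO it was -0.39 ± 0.12 (SE), adjusted p = 0.0284, a call that ended without any 1 ACLY KO library or without DKO1 replicate 1 or 3 (adjusted p = 0.0504 to 0.0942). Lig1 was -0.24 ± 0.063 (SE), adjusted p = 0.00593 in ACLY KO, -0.63 ± 0.068 (SE), adjusted p = 4.86e-06 in DKO1 against WT and -0.39 ± 0.068 (SE), adjusted p = 0.00103 against ACLY KO. The Lig1 call in ACLY KO ended with equal library totals and with quantile normalization.

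The members of nucleotide supply split into enzymes that fell and enzymes that did not pass the test. Ribonucleotide reductase makes deoxynucleotides from ribonucleotides, and its subunit genes among the members, Rrm1 and Rrm2, fell. Rrm2b, a further subunit gene that is not a member and was named after its values were seen, went the other way. It was called higher than WT in ACLY KO (1.03) and in DKO1 (0.91). Rrm2b had 815, 616, 860 and 794 normalized counts in WT and 1617, 1596, 1678 and 1389 in ACLY KO, with 1871, 1793 and 895 in DKO1. Rrm2 had 10379, 11531, 10653 and 10511 normalized counts in WT and 7011, 7099.7, 7063 and 7395 in ACLY KO, with 10575, 10038 and 10002 in ACSS2 KO and 6151, 6271 and 6014 in DKO1. WT and ACSS2 KO overlapped for Rrm2 (chromosome 12, 24708241 to 24714146, plus strand), ACLY KO lay below both and DKO1 below ACLY KO. The differences were -0.59 ± 0.051 (SE), adjusted p = 6.32e-07 in ACLY KO against WT, -0.81 ± 0.055 (SE), adjusted p = 7.77e-08 in DKO1 against WT and -0.22 ± 0.055 (SE), adjusted p = 0.0102 in DKO1 against ACLY KO. Rrm1, the large subunit, was -0.32 ± 0.052 (SE), adjusted p = 0.000191 in ACLY KO and -0.49 ± 0.056 (SE), adjusted p = 9.06e-06 in DKO1 against WT. Its difference between DKO1 and ACLY KO (-0.17 ± 0.056 (SE), adjusted p = 0.043) lost its call in 11 of the 14 leave-one-out fits, all but those without WT replicate 2, DKO1 replicate 1 or DKO1 replicate 3 (adjusted p = 0.0538 to 0.102). Rrm1 was -0.11 ± 0.045 (SE), adjusted p = 0.0894 without DKO1 replicate 4.

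The pyrimidine synthesis enzymes were lower too. Umps, which makes UMP from orotate, was lower than WT in ACLY KO (-0.19 ± 0.047 (SE), adjusted p = 0.00386), in ACSS2 KO (-0.20 ± 0.051 (SE), adjusted p = 0.0106) and in DKO1 (-0.35 ± 0.051 (SE), adjusted p = 7.62e-05). The ACLY KO call ended with equal library totals, and the ACSS2 KO call ended with equal library totals, with quantile normalization and without ACSS2 KO replicate 4. Cad had 8011, 5692, 8340.0 and 8545 normalized counts in WT and 6345, 6341, 6520.3 and 5502 in ACLY KO, with 5428, 5985 and 5705 in ACSS2 KO and 4844, 4799 and 2849 in DKO1. Cad, the enzyme of the first steps of pyrimidine synthesis (named after its values were seen), had 1 low library in WT and 1 in DKO1, the same libraries as Pole. It was -0.90 ± 0.18 (SE), adjusted p = 0.000862 in DKO1 against WT, and -0.78 ± 0.066 (SE), adjusted p = 1.12e-07 with those 2 libraries left out. Against ACLY KO, Cad was -0.61 in DKO1. That call ended without ACLY KO replicate 1, 2 or 3 or DKO1 replicate 4 (adjusted p = 0.0533 to 0.0589), and without DKO1 replicate 4 the difference was -0.35.

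The thymidylate and dUTP enzymes did not pass the test in any comparison, and all 3 were named after their values were seen. In DKO1 against WT, Tyms, which makes dTMP, was -0.01 ± 0.11 (SE), adjusted p = 0.943 (95% interval -0.24 to 0.22). Tk1, which salvages thymidine, was -0.037 ± 0.13 (SE), adjusted p = 0.826 (95% interval -0.31 to 0.24), and Dut, which removes dUTP, -0.35 ± 0.21 (SE), adjusted p = 0.167 (95% interval -0.81 to 0.10). Dut had 4312, 6630.4, 4144 and 4076 normalized counts in WT and 3325, 3441, 3149 and 3695 in ACLY KO, with 3993, 3565 and 3589 in ACSS2 KO and 2947, 3023 and 5527 in DKO1. WT replicate 2 and DKO1 replicate 4 were the highest Dut libraries of their groups, and the remaining 2 DKO1 libraries lay below every other library. Without DKO1 replicate 4 the differences were -0.18 ± 0.057 (SE), adjusted p = 0.0138 for Tyms, -0.23 ± 0.082 (SE), adjusted p = 0.0258 for Tk1, and -0.65 ± 0.16 (SE), adjusted p = 0.00262 for Dut. The genes around Tk1 and Dut had medians of 0.43 and 0.38. A pseudogene symbol of Tyms, Tyms-ps, had a mean of 4.18 normalized counts, and reads could be split between them.

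**Figure D3:**
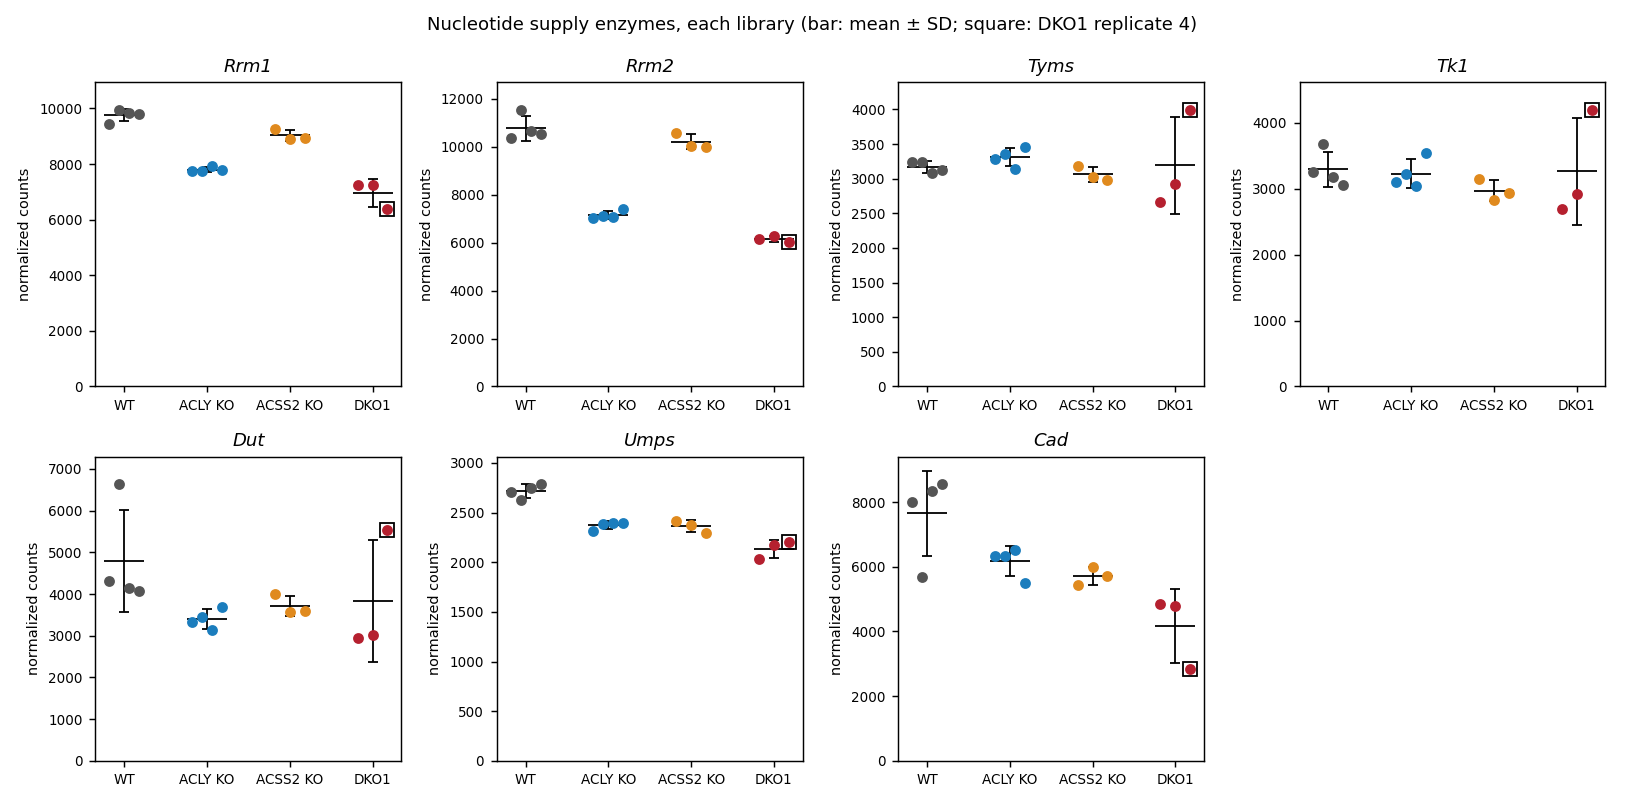
Normalized counts of the 7 nucleotide supply genes in each library (points), with the mean and SD of each genotype (bars) and DKO1 replicate 4 in a square. Rrm1, Rrm2 and Umps separate DKO1 from WT in every library, while for Tyms, Tk1 and Dut DKO1 replicate 4 (3992, 4194 and 5527) stands above the other 2 DKO1 libraries.

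Of the activating E2F members, E2f1 and E2f2 were not called lower in DKO1 against WT. E2f3, an activator outside the 58 that was named after its values were seen, was lower in DKO1 (-0.65 ± 0.061 (SE), adjusted p = 1.53e-06) and in ACLY KO (-0.77 ± 0.057 (SE), adjusted p = 1.62e-07) than in WT. E2f1 had 1596, 1830.0, 1614 and 1545 normalized counts in WT and 1597, 1497, 1618 and 1622 in ACLY KO, with 1452, 1273 and 1334 in ACSS2 KO and 1739.7, 1718 and 2273 in DKO1. ACSS2 KO was lowest for E2f1 and DKO1 replicate 4 highest, and the other 2 DKO1 libraries lay within the WT range. E2f1 was 0.21 ± 0.098 (SE), adjusted p = 0.0903 in DKO1 against WT and 0.49 ± 0.1 (SE), adjusted p = 0.00155 against ACSS2 KO, and its interaction was 0.54 ± 0.14 (SE), adjusted p = 0.0111. The 112 genes around E2f1 on chromosome 2 had a median of 0.40 in DKO1 against ACSS2 KO. E2f1 was -0.28 ± 0.098 (SE), adjusted p = 0.0499 in ACSS2 KO against WT, a call that ended in 11 of the 14 leave-one-out fits, all but those without a DKO1 library (adjusted p = 0.0551 to 0.178). E2f2 was 0.37 ± 0.096 (SE), adjusted p = 0.00556 in DKO1 against ACSS2 KO and 0.22 ± 0.09 (SE), adjusted p = 0.0485 against WT, and the latter call held only without WT replicate 1 or DKO1 replicate 4 (adjusted p = 0.0523 to 0.218).

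The repressors E2f7 and E2f8 fell in DKO1. E2f7 had 1922, 1341, 2226 and 2122 normalized counts in WT and 1188, 1204, 1149 and 1049.9 in ACLY KO, with 1209, 1456 and 1325 in ACSS2 KO and 1025, 918 and 572 in DKO1. E2f7 (chromosome 10, 110745439 to 110787384, plus strand) was lower in every knockout library than in WT replicates 1, 3 and 4, and WT replicate 2 lay within the ACSS2 KO range. It was 2.29-fold lower in DKO1 than in WT (-1.20 ± 0.2 (SE), adjusted p = 0.000178) and -0.70 ± 0.18 (SE), adjusted p = 0.00565 in ACLY KO. With DKO1 replicate 4 and WT replicate 2 left out, the DKO1 difference was -1.10 ± 0.086 (SE), adjusted p = 5.33e-08. E2f8 was -0.80 ± 0.18 (SE), adjusted p = 0.00225 in DKO1 against WT and -0.39 ± 0.17 (SE), adjusted p = 0.0725 in ACLY KO. Against ACSS2 KO it was -0.62 ± 0.19 (SE), adjusted p = 0.0174, a call that ended without ACSS2 KO replicate 2 (adjusted p = 0.0601). With DKO1 replicate 4 left out, E2f8 was -0.55 ± 0.14 (SE), adjusted p = 0.00379 against WT and -0.36 ± 0.15 (SE), adjusted p = 0.0485 against ACSS2 KO.

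The E cyclins drive CDK2 at the G1/S boundary. Ccne2 was lower in ACSS2 KO (-0.40 ± 0.09 (SE), adjusted p = 0.00508) and in DKO1 (-0.36 ± 0.09 (SE), adjusted p = 0.00398) than in WT, and these 2 genotypes differed by 0.037 ± 0.097 (SE), adjusted p = 0.768. In ACLY KO it was -0.16 ± 0.084 (SE), adjusted p = 0.125. Ccne1, named after its values were seen, was -0.25 ± 0.097 (SE), adjusted p = 0.0433 in DKO1 against WT. That call held only without DKO1 replicate 4, ACSS2 KO replicate 1 or ACSS2 KO replicate 4 (adjusted p = 0.0509 to 0.201).

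**Figure D4:**
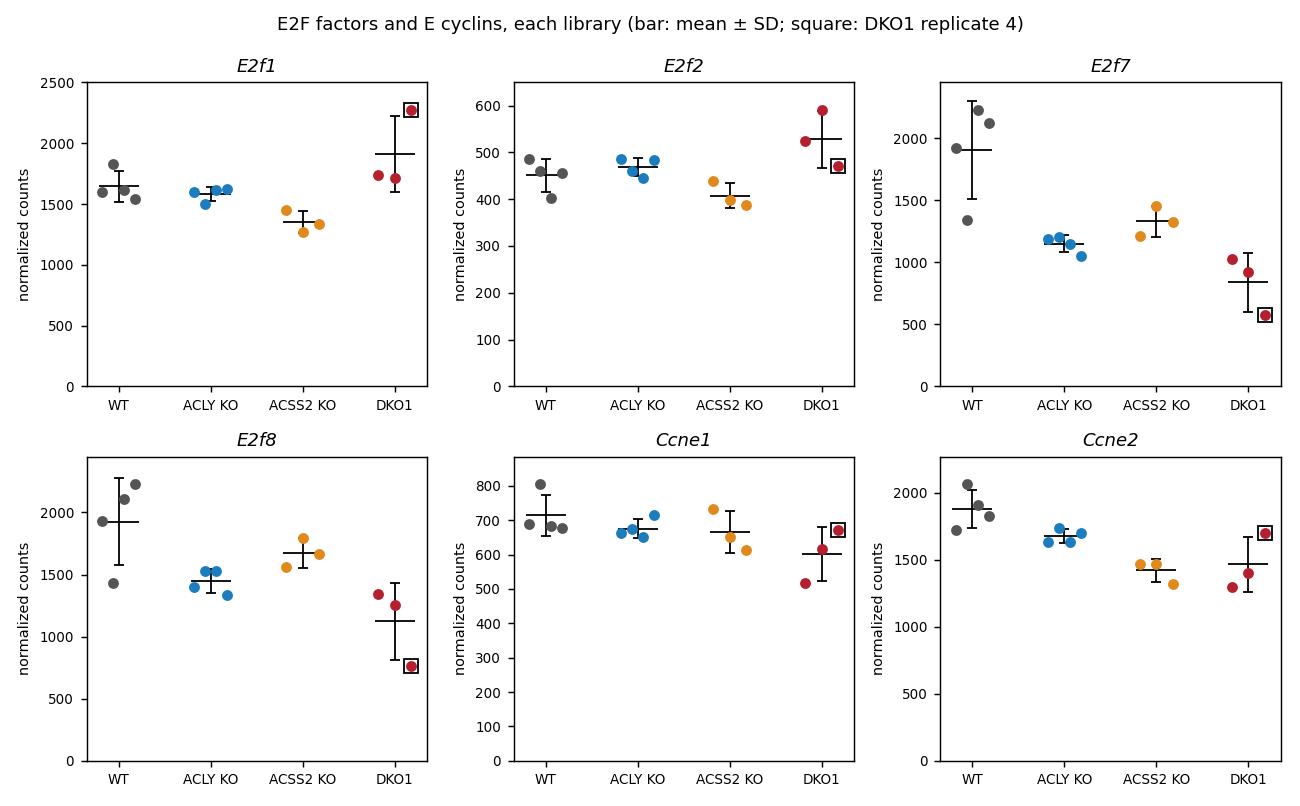
Normalized counts of the 4 E2F and 2 E cyclin genes in each library (points), with the mean and SD of each genotype (bars) and DKO1 replicate 4 in a square. E2f7 and E2f8 have their lowest means in DKO1 (range 572 to 1025 and 766 to 1342), while all 3 DKO1 values of E2f1 (1718 to 2273) lie above the 3 of ACSS2 KO (1273 to 1452).

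E2F factors bind short words in promoters, and RefSeq promoter sequences (GRCm38.p6, 250 bases before to 50 after each start, 1 start a gene) were searched for them on both strands. The words were TTTGGCGC, TTTCCCGC, TTTCGCGC and TTTGCCGC, and overlapping words were counted separately. At least 1 was found for 17 of the 48 members with a sequence (35.4%), against 4.17% of the 9980 tested genes with a sequence and 2.32% of all 27025 genes with one. They were in 4 of 5 MCM2-7 promoters, 3 of 4 licensing promoters and 4 of 7 polymerase promoters, and in 0 of 7 nucleotide supply promoters. The 200 bases before the start are printed for the 4 members whose words all lay there and outside the annotated gene, as examples of a helicase subunit pair, a polymerase and an E2F repressor that fell in DKO1. The words are in capitals. The regions are chr8:75109309-75109508 for Mcm5 (plus strand), chr1:128359706-128359905 for Mcm6 (minus strand), chrX:93632156-93632355 for Pola1 (minus strand) and chr10:110745239-110745438 for E2f7 (plus strand).
Mcm5 promoter: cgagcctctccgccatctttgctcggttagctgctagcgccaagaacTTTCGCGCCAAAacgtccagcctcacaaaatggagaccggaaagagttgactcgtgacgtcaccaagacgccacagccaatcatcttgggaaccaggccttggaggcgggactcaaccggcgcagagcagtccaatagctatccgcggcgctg
Mcm6 promoter: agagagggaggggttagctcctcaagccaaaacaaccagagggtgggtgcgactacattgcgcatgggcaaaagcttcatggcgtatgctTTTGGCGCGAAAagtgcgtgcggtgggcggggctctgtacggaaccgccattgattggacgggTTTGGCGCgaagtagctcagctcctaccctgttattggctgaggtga
Pola1 promoter: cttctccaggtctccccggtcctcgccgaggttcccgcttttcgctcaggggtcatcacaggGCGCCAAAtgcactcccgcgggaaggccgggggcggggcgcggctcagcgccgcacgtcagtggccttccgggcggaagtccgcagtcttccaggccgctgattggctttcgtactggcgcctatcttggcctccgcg
E2f7 promoter: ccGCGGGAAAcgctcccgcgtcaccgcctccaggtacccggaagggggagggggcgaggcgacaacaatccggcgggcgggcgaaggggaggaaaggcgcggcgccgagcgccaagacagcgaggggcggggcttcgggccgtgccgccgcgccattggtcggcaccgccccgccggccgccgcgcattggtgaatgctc

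In the Mcm5 and Mcm6 sequences a run of 12 capitals holds 2 overlapping words that read in opposite directions, and Mcm6 has 1 more word 47 bases before its start. Of the 17 members with a word, 15 were lower in DKO1 than in WT, with a median of -0.79. Of the 31 members without one, 21 were lower, with a median of -0.50. These 31 include Uhrf1, Dnmt1 and Lig1, all lower, which have a word at another RefSeq start. Among the tested genes that were not members, 34.6% of 399 with a word and 27.5% of 9533 without one were lower. Most genes with a word were thus not called lower, and a match is a description of the letters, not a bound site. The CCAAT box was in 60.4% of member promoters and 39.4% of those of tested genes. The CHR element, searched as TTTGAA and TTCGAA, was in 18.8% and 13.7%.

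All 8 genes of chromatin copying, repair and histone mRNA were lower in DKO1 than in WT, and this step held the 2 largest falls of the 58. Hells had 6626, 6409, 7635 and 7434 normalized counts in WT and 4024, 4269, 4204 and 4003 in ACLY KO, with 5685, 6130.3 and 5628 in ACSS2 KO and 2834, 2875 and 2336 in DKO1. Hells, a remodelling ATPase needed for DNA methylation (chromosome 19, 38930915 to 38971051, plus strand), separated all 4 genotypes, in the order DKO1, ACLY KO, ACSS2 KO and WT. It was 2.62-fold lower in DKO1 than in WT (-1.39 ± 0.085 (SE), adjusted p = 3.02e-08), and -0.76 ± 0.079 (SE), adjusted p = 3.4e-06 in ACLY KO. Its 69 neighbours on chromosome 19 had medians of -0.56 and -0.44. In ACSS2 KO it was -0.27 ± 0.085 (SE), adjusted p = 0.0322, a call that ended without WT replicate 3 or 4 or ACSS2 KO replicate 1 or 4 (adjusted p = 0.0828 to 0.12).

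Uhrf1 recruits the maintenance methylase DNMT1 to newly copied DNA. Uhrf1 had 8751, 7690.4, 9054 and 9782 normalized counts in WT and 6268, 5863, 6138 and 5668 in ACLY KO, with 6643, 7223 and 6483 in ACSS2 KO and 3528, 3719 and 3119 in DKO1. DKO1 was lowest in every library, and ACLY KO lay below ACSS2 KO and WT. Uhrf1 (chromosome 17, 56303321 to 56323486, plus strand) was -1.35 ± 0.087 (SE), adjusted p = 4.77e-08 in DKO1 against WT, -0.79 ± 0.087 (SE), adjusted p = 2.6e-05 against ACLY KO and -0.37 ± 0.087 (SE), adjusted p = 0.00599 in ACSS2 KO against WT. Its 52 neighbours had a median of 0.058 in DKO1 against WT. Msh6, a mismatch recognition subunit, was -0.92 ± 0.06 (SE), adjusted p = 5.74e-08 in DKO1 against WT and -0.55 ± 0.06 (SE), adjusted p = 2.69e-05 against ACLY KO, beside neighbour medians on chromosome 17 of -0.58 and -0.37.

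The remaining 5 of this step were named after their values were seen. Chaf1a and Chaf1b, subunits of the CAF-1 histone chaperone, were -0.81 and -0.54 in DKO1 against WT (adjusted p = 2.72e-07 and 4.2e-05). Against ACLY KO, Chaf1a was -0.27 ± 0.063 (SE), adjusted p = 0.00667 and Chaf1b -0.071 ± 0.075 (SE), adjusted p = 0.51. Dnmt1 was -0.77 ± 0.15 (SE), adjusted p = 0.000818 in DKO1 against WT and -0.18 ± 0.14 (SE), adjusted p = 0.329 in ACLY KO, and without DKO1 replicate 4 the former was -0.53 ± 0.096 (SE), adjusted p = 0.000333. Usp1, which deubiquitinates PCNA, against WT was -0.49 in ACLY KO, -0.68 in DKO1 and -0.28 in ACSS2 KO (adjusted p = 8.31e-05, 8.49e-06 and 0.0158), and its ACSS2 KO call ended without ACSS2 KO replicate 4 (adjusted p = 0.0673). Slbp, which binds the stem-loop of replication-dependent histone mRNAs, was -0.63 ± 0.16 (SE), adjusted p = 0.00403 in DKO1.

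Most of the 58 were not called in ACSS2 KO against WT. The 9 members that were lower in ACSS2 KO than in WT were Orc1, Mcm4, Pold3, Umps, E2f1, Ccne2, Uhrf1, Hells and Usp1, and the 3 that were higher were Prim1, Prim2 and Mcm6. Mcm4 was -0.23 ± 0.058 (SE), adjusted p = 0.0111, and its call ended without ACSS2 KO replicate 4 (adjusted p = 0.0645). The balance depended on the scaling. Equal library totals, which moved the median of all tested genes to 0.11, ended the calls of Mcm4, Pold3, Umps, E2f1, Uhrf1, Hells and Usp1, so that 2 members were lower and 5 higher. With quantile normalization 4 were lower and 5 higher. Without DKO1 replicate 4, which shares the estimate of spread, 18 were lower and 5 higher, and without ACSS2 KO replicate 4 there were 4 lower and 3 higher. Calls over all tested genes, in either direction, were 5079 and 2343 in these fits, against 3306 with all libraries. The groups separated downwards for 18 members and upwards for 7, when 19.8% and 23.0% of tested genes did so.

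Where ACSS2 was lost in the ACLY KO background, the change differed from that in WT cells for 18 members, 16 more negative and 2 more positive, when 15.1% and 12.0% of tested genes were called in those directions. Of the 16, 15 were also called lower in DKO1 against ACLY KO. In ACSS2 KO against WT, 3 of the 16 (Mcm4, Uhrf1 and Hells) were called lower and 3 (Mcm6, Prim1 and Prim2) higher. Both differences are terms of the interaction, so such overlaps are partly built in and say nothing further about the members. The shares of all tested genes with these pairs of calls are not given here. Cdt1 had the most negative interaction (-0.73 ± 0.12 (SE), adjusted p = 0.000505), with a neighbour median of -0.16. Cdc6 (-0.32 ± 0.092 (SE), adjusted p = 0.0205) lost its call without ACSS2 KO replicate 2 (adjusted p = 0.0624), and so did Uhrf1 (-0.42 ± 0.12 (SE), adjusted p = 0.0224, then adjusted p = 0.0654). Pola2 was -0.30 ± 0.071 (SE), adjusted p = 0.00761 and Msh6 -0.40 ± 0.085 (SE), adjusted p = 0.00391, beside neighbour medians of -0.15 and -0.30. Neighbour medians for the interaction were -0.26 around Cdc6, -0.16 around Hells, -0.11 around Pola1, 0.022 around Lig1, 0.037 around Uhrf1 and 0.34 around Orc6. Orc6 (0.67 ± 0.23 (SE), adjusted p = 0.0462) lost its call in 10 of the 14 leave-one-out fits, all but those without WT replicate 4 or a DKO1 library (adjusted p = 0.0512 to 0.112), and was 0.43 ± 0.15 (SE), adjusted p = 0.0422 without DKO1 replicate 4. Pola1 (-0.71 ± 0.23 (SE), adjusted p = 0.0358) lost it without WT replicate 2, ACLY KO replicate 1, 2 or 3 or ACSS2 KO replicate 2 or 4 (adjusted p = 0.0589 to 0.0872). Lig1 (-0.33 ± 0.097 (SE), adjusted p = 0.0245) lost it without ACLY KO replicate 3, ACSS2 KO replicate 1 or 4 or DKO1 replicate 1 or 3 (adjusted p = 0.0501 to 0.0606). Hells (-0.36 ± 0.12 (SE), adjusted p = 0.0431) kept it only without WT replicate 3 or 4 or DKO1 replicate 1 or 3 (adjusted p = 0.0531 to 0.11 otherwise). Of the 13 genes of nucleotide supply, the clamp and its loader, 0 were called for the interaction in limma, and 1, Rfc1, was below 0.05 before adjustment. Of the 6 helicase activation factors, 0 were called as well. With so few genes, and 15.1% and 12.0% of tested genes called, these counts do not set the steps apart.

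Some members lay in chromosome regions whose other genes moved the same way, and some where they moved the opposite way. In DKO1 against WT, the median of tested genes within 5 Mb was under -0.2 for 7 members and over 0.2 for 10. The low regions held Pola2, Fen1 and Hells on chromosome 19, Msh6 on chromosome 17, Mcm2 on chromosome 6, Gins4 on chromosome 8 and Pola1 on chromosome X. The high regions held Pcna, Dut, Gins1, E2f1 and Mcm10 on chromosome 2, and Tk1, Pold2, Gmnn, Mcm3 and Mcm5 elsewhere. Over the 58, the median of the neighbour medians was -0.0059, and the median difference between a member and its neighbours was -0.50. Of the 42 members called lower, 41 lay below their neighbours, 40 of them by more than 0.2. Gins4 was the exception. In ACLY KO against WT, the median difference from the neighbours was -0.27 and all 29 members called lower lay below theirs. Members called lower were picked for their low values, so these counts would be high in any case. Of all 58 members, called or not, 54 lay below their neighbours in each of these comparisons. In ACSS2 KO against WT the high regions were those of Prim1, Mcm6 and Cdc6. The DNA copy number of these regions was not measured here.

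**Figure D5:**
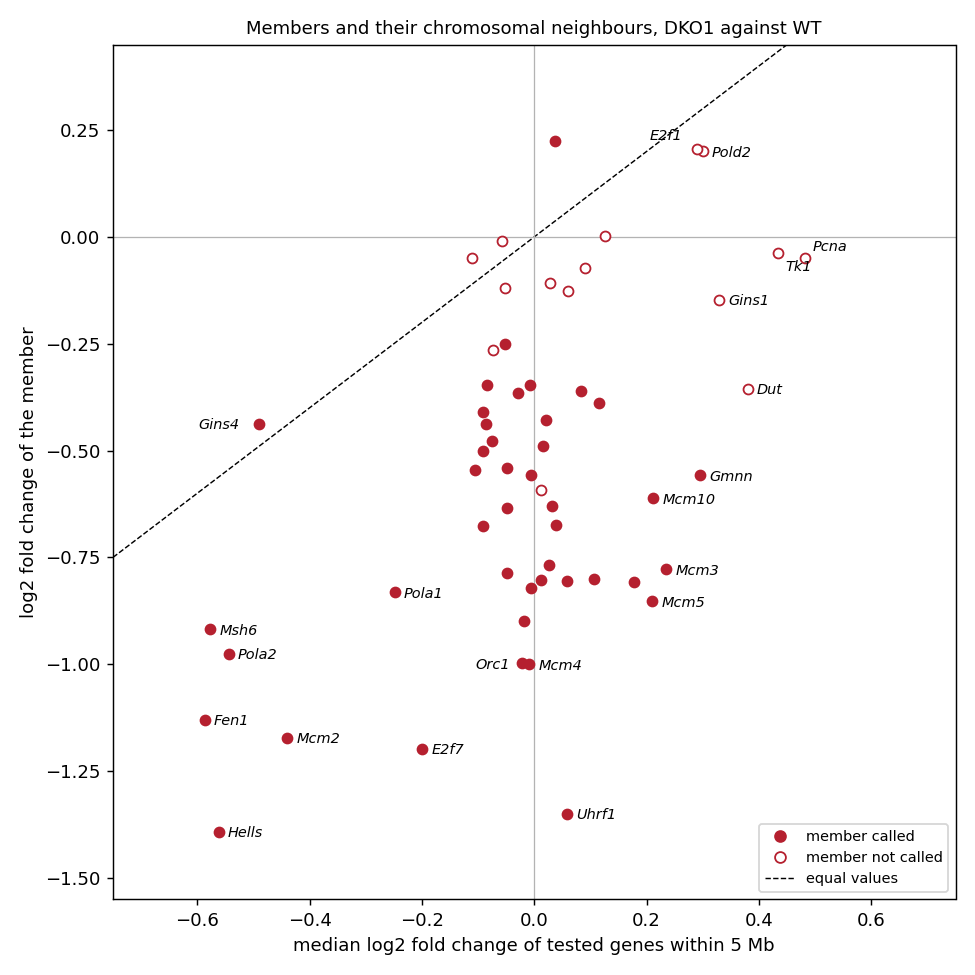
Log2 fold change of each member in DKO1 against WT (vertical) and the median log2 fold change of the tested genes within 5 Mb of it (horizontal), with filled points for called members and a dashed line at equal values. Labels mark members whose neighbours lie beyond 0.2 in either direction or that fell by more than 0.95. Gins4 lies just above the line, and 54 of the 58 lie below it.

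The members that were not called in DKO1 against WT tended to have shorter transcripts and wider errors. The 15 had a median merged exon length of 2709 bases and a median SE of 0.153, against 4601 bases and 0.0749 for the 43 that were called. The part of the length trend in these errors was not tested. When DKO1 replicate 4 alone was left out, Gins3, Pcna, Pold2, Pole and E2f1 were still not called, E2f2 was not called lower either, and the other 52 were lower. With WT replicate 2 left out as well, Pole was called lower and Pcna was -0.14 ± 0.062 (SE), adjusted p = 0.0587. With the correction for transcript length 45 members were lower and 3 higher, while calls over all tested genes rose from 7111 to 8092.

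Per kilobase of merged exon, the most abundant member in WT was Pcna at 8373 normalized counts per kb, followed by Rrm2 at 3886. The 6 MCM2-7 genes were at 1429 to 2637 per kb in WT, with a median of 2245, and at a median of 1307 in DKO1. The polymerase and primase genes ran from 193 (Prim2) to 1154 (Pold2) per kb in WT, the licensing factors from 168 (Orc1) to 1096 (Orc6), and the GINS, Cdc45 and Mcm10 step from 169 (Gins3) to 1125 (Gins4). E2f2 was the least abundant member at 92.4 per kb. These levels depend on the merged exon length of the annotation, which can exceed that of the transcript in use.

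Other genes of the same pathways were listed for comparison. In DKO1 against WT, 28.1% of all tested genes were called lower and 27.9% higher, which are the shares to set beside each list. Of 30 other replication factors, 15 were lower and 6 higher in DKO1 against WT. Timeless, a fork protection factor, was -0.87 ± 0.077 (SE), adjusted p = 8.04e-07 there and 0.48 ± 0.077 (SE), adjusted p = 0.000446 in ACSS2 KO, where its neighbours on chromosome 10 had a median of 0.52. Orc4, another ORC subunit, was higher in DKO1 (0.75 ± 0.056 (SE), adjusted p = 1.62e-07) and in ACLY KO (0.40 ± 0.052 (SE), adjusted p = 2.92e-05) than in WT, beside neighbour medians of 0.26 and 0.20. Of 16 other E2F, pocket protein and CDK2 genes, 10 were lower and the rest were not called. The former included Tfdp1, the E2F dimer partner (-1.04 ± 0.054 (SE), adjusted p = 8.04e-09), and Ccna2, cyclin A2 (-0.84 ± 0.058 (SE), adjusted p = 8.93e-08). Ccna2 was also lower in ACSS2 KO than in WT (-0.50 ± 0.058 (SE), adjusted p = 3.88e-05).

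Of 29 other nucleotide synthesis genes, 15 were lower and 5 higher in DKO1 against WT. The purine synthesis genes Paics and Gart were -0.78 ± 0.051 (SE), adjusted p = 5.84e-08, and -0.67 ± 0.062 (SE), adjusted p = 1.23e-06. Paics had 18908 ± 609 (SD, n = 4) normalized counts in WT and 11809.8 ± 165 (SD, n = 4) in ACLY KO, and between DKO1 and ACLY KO it was -0.10 ± 0.051 (SE), adjusted p = 0.161. Of 12 other genes of replication-coupled chromatin and mismatch repair, 8 were lower and the rest were not called. Nasp, a histone chaperone, was -0.88 ± 0.088 (SE), adjusted p = 2.33e-06.

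The exons of 14 members overlap those of an expressed gene on the opposite strand, among them Mcm7, Cdc45, Orc6, Fen1, Lig1, Tk1, Chaf1a and Msh6. The libraries were directional, but whether reads were counted by strand is not given in the sources used here, so values of these genes may include reads of the other gene.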

How the data were processed

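Poly(A) RNA of cultured mouse cells was made into directional NEBNext libraries and read single-end on a NextSeq 500. Per the labels and methods, the authors aligned reads to GRCm38/mm10 with Illumina's RNA-seq alignment software (RNA STAR) and normalized them with DESeq2 1.0.1 as the submitters' processing notes give it. The annotation and the read counting are not given in the sources used here. The deposited values are a normalized signal per gene, read counts divided by a library factor, for 24972 symbols. Of these, 26 had been turned into dates by a spreadsheet and 5487 were at 0 in every library. A count test was not used because the values do not give whole reads.

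The differences were computed with limma 3.58.1 in R 4.3.3 (trend on the mean) on log2(value + 1). This covered 12693 genes whose mean over the 14 libraries was 10 or more. All 4 genotypes shared 1 estimate of the spread, and the adjustment was that of Benjamini and Hochberg over all genes. Summaries were made with pandas 2.3.3 in Python 3.11.15. In simulated DKO1 and WT data of 12693 genes, 165 of 200 genes changed by 1 on the log2 scale were recovered and 8 unchanged genes were called. The simulated noise was independent between genes and libraries and held no length trend, so these counts do not carry over to the real libraries. Alternatives were another value added before log2, no filter, equal totals, quantile normalization, a transcript length correction (5-df spline), array weights, a robust variance, 2-group fits, a replicate block and each library left out. Neighbours were tested genes within 5 Mb in the GRCm38 annotation, which also gave merged exon lengths. The libraries are single lines or clones, and counting error is not separated from the spread between libraries.

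The members and lists were chosen with earlier results of these data known. Named with values were, in each step, the 3 members with the smallest adjusted p in DKO1 against WT, members called against the majority direction, members called for the interaction, the targeted genes, and the 2 genes with the smallest adjusted p of each list of other pathway genes. For 1 of those lists, 1 of the 2 genes is not reported here. The values of all other members were given after they were seen.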

Additional observations from a re-analysis of the deposited data

Results flagged for a closer look

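In 9 of 116 groups of 4 libraries (58 members in WT and in ACLY KO), 1 library stood apart by Dixon's 95% limit for 4 samples, and chance alone would mark about 1 in 20 groups. In 7 of the 9 it was WT replicate 2, the highest WT library each time, at 2134 normalized counts for Gmnn, 498 for Gins3, 2727 for Rfc2, 1459 for Rpa3, 6630.4 for Dut, 804 for Ccne1 and 6133 for Slbp. In the other 2 it was ACLY KO replicate 4, at 1148 for Gins1 and 6003 for Dnmt1. Both libraries are among those in which short transcripts lay high.

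The interaction was tested in limma as the change from ACLY KO to DKO1 minus the change from WT to ACSS2 KO. For 18 members the change that went with ACSS2 loss differed between ACLY KO and WT cells, where genotype and clone cannot be told apart. It was more negative in ACLY KO cells for Cdt1 (-0.73, adjusted p = 0.000505), Pola1 (-0.71, 0.0358), Prim2 (-0.65, 0.000123), Prim1 (-0.60, 0.000257), Mcm3 (-0.55, 0.000195), Mcm6 (-0.55, 0.000112), Mcm2 (-0.43, 0.00402), Uhrf1 (-0.42, 0.0224) and Msh6 (-0.40, 0.00391). The same held for Mcm4 (-0.39, 0.0037), Rpa1 (-0.38, 0.00184), Hells (-0.36, 0.0431), Lig1 (-0.33, 0.0245), Cdc6 (-0.32, 0.0205), Pola2 (-0.30, 0.00761) and Mcm7 (-0.30, 0.00516). It was more positive for Orc6 (0.67, 0.0462) and E2f1 (0.54, 0.0111). DKO1 replicate 4 was the highest DKO1 library for both of the latter, and without it Orc6 was 0.43 ± 0.15 (SE), adjusted p = 0.0422 and E2f1 0.41 ± 0.098 (SE), adjusted p = 0.00602.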

How the results depend on the processing

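Of 5644 refitted single-gene differences over 218 called gene and comparison pairs, 5315 kept their direction and call, 329 kept the direction and lost the call, and 0 changed direction. At the limits of the study, 0 members were lower or higher in any comparison. At an adjusted p under 0.01, 4 members were lower in ACSS2 KO and 0 higher in DKO1 against WT, 17 were lower in DKO1 against ACLY KO, and 0 were positive for the interaction. With equal library totals, 1 was higher in ACLY KO, 2 lower and 5 higher in ACSS2 KO and 3 higher in DKO1 against WT, and 1 was positive for the interaction. That scaling moved the median of all genes to 0.10 in ACLY KO, 0.11 in ACSS2 KO and -0.16 for the interaction, and the lower share of all calls from 50.9% to 38.1%, from 42.2% to 24.2% and from 55.7% to 71.8%. With quantile normalization 4 were lower and 5 higher in ACSS2 KO. With the length correction 17 were lower in ACSS2 KO, 3 higher in DKO1 against WT, 3 higher in DKO1 against ACLY KO and 5 positive for the interaction. With array weights, whose estimate did not fully converge, 2 were higher in ACLY KO, 26 lower and 8 higher in ACSS2 KO, and 31 negative and 6 positive for the interaction. With DKO1 replicate 4 and WT replicate 2 both left out, 2 were higher in ACLY KO, 21 lower and 8 higher in ACSS2 KO, 46 lower and 1 higher in DKO1 against ACLY KO, and 31 negative and 5 positive for the interaction. Calls over all tested genes then rose too, from 3306 to 6081, 3545 to 5511 and 3435 to 5599 in the last 3 of these comparisons. With array weights they were 6885 in ACSS2 KO and 5309 for the interaction. These rises in count are thus not particular to the members. With only the 2 groups compared, 0 were higher in DKO1 against WT, 16 lower against ACLY KO and 1 higher against ACSS2 KO. With no filter, 0 were higher in DKO1 against WT and 1 positive for the interaction. The cause was not tested.

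Leaving out 1 library at a time, lower members numbered 29 to 39 in ACLY KO, 4 to 18 in ACSS2 KO and 39 to 52 in DKO1 against WT, 23 to 32 in DKO1 against ACLY KO, 31 to 42 against ACSS2 KO and 12 to 20 for the interaction. Higher members numbered 0 to 0, 3 to 5, 0 to 1, 0 to 2, 2 to 2 and 1 to 4. The highest count of lower members came without DKO1 replicate 4 in each comparison, and calls over all tested genes were also more than with all libraries there. Replicate numbers did not pair the libraries: 18 same-number pairs had correlations of -0.43 to 0.45 (median 0.0078), with 5 over 0.1. With a replicate block, 29, 7, 38, 25, 33 and 14 members were lower and 0, 3, 0, 0, 2 and 2 higher. Depth per library is an estimate and limits members with few counts most, such as Orc1, Gins3 and E2f2 (means of 426, 435 and 463 normalized counts).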
